A study of Mus musculus with 18 samples.

Results

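Cells given LPS after TBHQ were set against untreated cells, to see which part of the activation by LPS remained and which genes ended on the other side of the untreated level. The comparison takes the 3 libraries labelled LPS + TBHQ and the 3 labelled Control, which are 6 of the 18 libraries of the series, over all genes of the count table. The cells are an immortalised mouse macrophage line, and the column headers mark every library as WT. Lipopolysaccharide (LPS) is a component of the outer membrane of Gram-negative bacteria, and tert-butylhydroquinone (TBHQ) is a phenolic antioxidant added to food. In the LPS + TBHQ cells, TBHQ at 5 µM came first, for 4 h, and LPS at 0.1 µg/mL followed for 12 h. Control cells were left without either agent after they had adhered. Values of 2 further conditions stand beside the comparison: LPS at 0.1 µg/mL for 12 h without TBHQ, and TBHQ at 5 µM, harvested after 4 h. Values of libraries given poly(I:C), a mimic of double-stranded RNA, for 12 h, with or without TBHQ before, are given only at the end. TBHQ was kept as a stock in DMSO and no carrier is named for the Control cells, so the agent and its carrier cannot be told apart. The timeline of the experiment lists Control as medium only beside the 12 h of LPS, and the TBHQ libraries were harvested 4 h after TBHQ was added, where the LPS + TBHQ libraries were harvested 16 h after. All libraries come from 1 line, and the study's methods describe the replicates as biological.

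LPS is sensed by Toll-like receptor 4 with its coreceptors Cd14 and Ly96. The receptor signals through Myd88 to NF-κB and AP-1, which drive cytokine and chemokine genes within hours, and through Ticam1 to type I interferon, whose receptor then switches on interferon-stimulated genes. Electrophiles such as TBHQ release the transcription factor Nrf2 from Keap1, and Nrf2 drives genes of glutathione synthesis, thioredoxin reduction, quinone reduction and heme breakdown.

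Library totals, as counts in genes, ran from 14599770 to 15932183 for Control, from 16487653 to 17533571 for LPS + TBHQ and from 14423390 to 18851626 over all 18 libraries. Levels are given as FPKM, which here scales fragments by gene length, library total and a further constant for each library. Differences are given as log2 fold changes (log2FC) from edgeR's quasi-likelihood test on the counts, with the false discovery rate (FDR) of Benjamini and Hochberg over the 13691 genes tested. Mitochondrial genes took 2.03 to 2.18% of the counts in Control and 1.72 to 1.78% in LPS + TBHQ. The macrophage identity of the line was checked first. All 15 macrophage markers were above 3 counts in each of the 6 libraries, led by the lysozyme gene Lyz2, and their summed FPKM was 6505 to 6883 in Control and 6609 to 6805 in LPS + TBHQ. Lyz2 shares 15.4% of its 50-base words with another gene, and its level is uncertain, as is that of each gene below for which a share over 10% is given. Of these 15 markers, 6 were higher and 3 lower in LPS + TBHQ at an FDR below 0.05, beside 21.2% and 22.5% of all genes tested, and the median log2FC was -0.02. Adgre1, which encodes F4/80, differed from Control by 1.12. Scaled by total library size instead of TMM factors, 6 markers were higher and 7 lower. Of the 13691 genes tested, 2281 were higher and 4034 lower under that scaling. In bulk RNA, fewer cells that express a gene and less RNA per cell cannot be told apart.

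Markers of most other cell types were near the detection floor. Osteoclast genes, which macrophage lines also express, were well above it. Of 8 osteoclast markers 7 were tested. Ctsk, the bone-resorbing cathepsin K, was their most abundant gene, with a mean FPKM of 210.0 in Control and 165 in LPS + TBHQ. The summed FPKM of the 8 was 363 to 400.5 in Control and 297 to 314 in LPS + TBHQ, and 3 fell while 1 rose, beside 22.5% and 21.2% of all genes (median log2FC -0.02). Their part in the results was not tested. Of the neutrophil markers, S100a8 was tested (log2FC 2.14, mean FPKM 3.46 in LPS + TBHQ), while Ly6g, S100a9 and Cxcr2 had no count in the 6 libraries. The summed FPKM of the 6 neutrophil markers was 0.855 to 0.996 in Control and 2.03 to 4.69 in LPS + TBHQ, with S100a8 the most abundant, and their part in the results was not tested. Of the dendritic cell markers, Zbtb46 was tested (log2FC 0.02, FDR 0.970), and Cd209a and Siglech had no count. No marker of T and B cells, fibroblasts or epithelial cells passed the filter on low counts, and 6 of the 7 T and B cell markers had no count.

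Most of the large changes in LPS + TBHQ were increases. At an FDR below 0.05, 11 of 17 cytokine genes tested, 9 of 14 chemokine genes and 19 of 22 genes of mediator enzymes and proteases were higher than Control. In the contrast with LPS alone, where 12.2% of all genes were lower, 14, 13 and 13 genes of these lists were lower. At an FDR below 0.01 and a log2FC beyond 2 in size, which is the limit in the study's methods and amounts to 4-fold, 115 genes were higher than Control (0.84% of the 13691 tested) and 17 were lower (0.124%). At an FDR below 0.05 with no limit on size, 2896 genes (21.2%) were higher and 3087 (22.5%) lower. Scaled by total library size, the latter split was 2281 higher and 4034 lower, a share of 36.1% higher in place of 48.4%. These are the counts over all genes to set beside each list counted with total library size below. For LPS alone 3283 genes (24%) were higher and 3306 (24.1%) lower at that FDR, and for TBHQ alone 1943 (14.2%) and 2030 (14.8%). These comparisons share the Control libraries, so their counts stand side by side and were not tested against each other. Most changes were small: the median size of log2FC among the genes at an FDR below 0.05 was 0.35, and 721 exceeded 1. The groups did not overlap for 7127 of the genes tested (52.1%).

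The 115 genes past the limit had a median, over genes, of 37 mean counts in the 6 libraries, and 52 of them reached a mean of 50. In the direct contrast of LPS + TBHQ with LPS, 24 of the 115 were higher, 40 lower and 51 not called, beside 1601 (11.7%) higher and 1673 (12.2%) lower among all genes tested. Because the 115 were picked on the LPS + TBHQ libraries, these counts are a description. The 17 genes past the limit on the lower side had a median of 15 mean counts, and 2 reached a mean of 50, so that side rests mostly on low counts. The gene just inside the higher limit was Akr1b8 (log2FC 2.00) and the gene just outside was Blvrb (1.97). On the lower side these were Sbk2 (-2.02) and Cd200r2 (-1.99).

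The cytokine Csf3, which drives the making of neutrophils, had the largest fold change among the named genes with more than 3 counts in each library of Control, LPS and LPS + TBHQ. Csf3 (ENSMUSG00000038067, chr11:98592089-98594455 on mm39, as are all gene positions here) had FPKM of 5.58, 2.35 and 2.26 in the Control libraries, 927, 865 and 903 in LPS and 742, 681 and 751 in LPS + TBHQ. The LPS + TBHQ libraries were thus all far above Control and all below LPS. Its log2FC against Control was 7.75 (SE 0.42, FDR 1.0e-35), and against LPS -0.31 (FDR 1.2e-04). The part of the increase that remained, taken as the LPS + TBHQ mean FPKM less the Control mean in percent of the LPS mean less the Control mean, was 80.6% (75.8 to 83.5% over the 3 LPS + TBHQ libraries).

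The interleukin-1 genes kept a smaller part of their increase. Il1b (ENSMUSG00000027398, chr2:129206490-129213059) encodes the secreted fever cytokine interleukin-1β. Its counts were 1, 2 and 1 in Control, 1444, 1144 and 1079 in LPS and 200, 187 and 159 in LPS + TBHQ. As a ratio of summed counts, scaled by library total, it was 124-fold higher than Control after LPS + TBHQ (95% counting interval 48.1 to 456, exact Clopper-Pearson) and 971-fold higher after LPS (379 to 3567). These intervals are wide because Control had so few counts, and they cover counting error only. Each LPS + TBHQ library stood between the other groups, and the part that remained was 12.5% (10.5 to 13.9%). Il1a, the cytokine's cell-bound relative, kept 6.54% (5.04 to 7.82%) and was 16.3-fold higher than Control (95% counting interval 6.74 to 51.5), where Control had 1, 1 and 3 counts. Il6, an acute-phase cytokine, kept 31.9%, with mean FPKM of 0.466 in Control, 4.11 in LPS and 1.63 in LPS + TBHQ. Tnf, an early cytokine that amplifies inflammation, kept 79.6%, with 132, 118 and 111 FPKM in Control, 510.4, 492 and 489 in LPS and 432, 406 and 423 in LPS + TBHQ (log2FC 1.80, SE 0.08, FDR 4.2e-28).

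Of the 17 cytokine genes tested out of 21 listed, 11 were higher than Control at an FDR below 0.05, 2 were lower and 4 were not called, against 21.2% and 22.5% of all genes. The median log2FC was 0.98 in LPS + TBHQ and 2.04 in LPS, where that of all genes tested was -0.01 in LPS + TBHQ. Against LPS, 14 of the 17 were lower and 1 higher, where 12.2% of all genes were lower and 11.7% higher. For the 9 cytokine genes with a log2FC above 1 after LPS and a mean of at least 50 counts, the part that remained had a median of 40.8% and ran from 6.54% for Il1a to 80.6% for Csf3. The members below Control were Il18, which encodes an inflammasome-processed cytokine (log2FC -0.49, FDR 0.0403), and the macrophage growth factor gene Csf1 (-0.55, FDR 0.00450). Both were above Control after LPS, at 0.77 and 0.75. The call of Il18 was lost by DESeq2 and without Control replicate 1 or 2 or LPS + TBHQ replicate 2 or 3, at values from -0.38 to -0.51, and that of Csf1 without Control replicate 1, where its log2FC was -0.31. Il18 also overlaps Bco2 on the opposite strand. Ifnb1, the interferon-β gene, did not pass the filter on low counts.

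Chemokines divided by how much they kept. Cxcl2, which attracts neutrophils, had 72.7, 55 and 58.5 FPKM in Control, 975, 1029 and 790.0 in LPS and 848, 791 and 777 in LPS + TBHQ, and kept 85.5% (log2FC against Control 3.69, SE 0.13, FDR 6.5e-30). 1 LPS library lay below the highest LPS + TBHQ library, and the direct contrast was -0.21 (FDR 0.0175). Ccl3, which attracts monocytes and macrophages, kept 89.8%, at mean FPKM of 484, 2933 and 2684 in Control, LPS and LPS + TBHQ. Ccl4 kept 85.7%. The monocyte attractants Ccl2 and Ccl7 kept less. Ccl2 kept 45.5% and went from 83.9 to 655 FPKM, where LPS alone gave 1339. Ccl7 kept 32.8% and went from 5.17 to 59, where LPS gave 169. Ccl12, another ligand of Ccr2, was not called against Control (FDR 0.239), with counts of 3, 0 and 1 in Control, 43, 43 and 29 in LPS and 0, 5 and 6 in LPS + TBHQ. Cxcl3, a near relative of Cxcl2, had no count in Control and 28, 21 and 17 counts in LPS + TBHQ, at least 6.67-fold higher against a floor of 3 counts in each Control library. Of 14 chemokine genes tested out of 20 listed, 9 were higher than Control and 1 was lower, beside 21.2% higher and 22.5% lower among all genes, with a median log2FC of 1.83. After LPS all 14 were higher, beside 24% of all genes, with a median of 3.63, or 2.81 with the genes at the floor set to their bound. Against LPS, 13 were lower, beside 12.2% of all genes. The part that remained had a median of 39.2% over 8 genes. The lower member was Cxcl10, described with the interferon-stimulated genes.

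**Figure D1:**
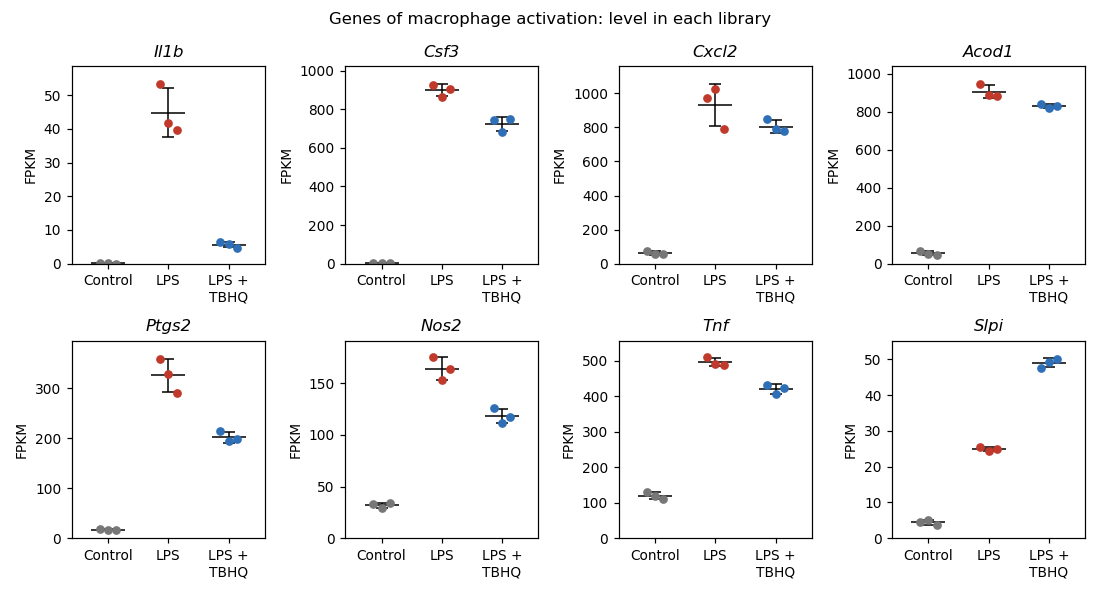
FPKM of 8 genes of activation in each library of Control, LPS and LPS + TBHQ (points, 3 libraries a group; bars, mean and SD; linear axes from 0). Il1b keeps 12.5% of its LPS increase, Acod1 keeps 91%, and Slpi stands higher in LPS + TBHQ than in LPS.

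Enzymes of inflammatory mediators and proteases ranged widely in how much of their increase they kept. Acod1 (ENSMUSG00000022126, chr14:103284413-103294009), which makes itaconate from the citric acid cycle, had 65.3, 48.8 and 47.2 FPKM in Control, 946, 888 and 883 in LPS and 838, 819 and 829 in LPS + TBHQ. It kept 91% (log2FC 3.94, SE 0.15, FDR 3.1e-33). The LPS + TBHQ libraries were all below the LPS libraries, but the contrast with LPS was -0.13 (FDR 0.0841) and was not called. Ptgs2, the inducible cyclooxygenase of prostaglandin synthesis, had 18, 16.7 and 16.4 FPKM in Control, 359, 328 and 291 in LPS and 215, 194 and 199 in LPS + TBHQ, and kept 60.0%. Nos2, the inducible nitric oxide synthase, had 33.1, 29.2 and 33.7 FPKM in Control, 175, 153 and 164 in LPS and 126, 112 and 117 in LPS + TBHQ, and kept 65.3% (log2FC 1.88, SE 0.08, FDR 9.0e-27). Mmp9, a gelatinase, kept 93.9%, and its contrast with LPS was -0.08 (FDR 0.196). Odc1, the first enzyme of polyamine synthesis, kept 68.4%, with 24.3% of its words in other genes. At the other end Serpinb2, an inhibitor of plasminogen activators, kept 8.56%, with no count in Control, 182, 178 and 142 in LPS and 15, 18 and 18 in LPS + TBHQ, at least 5.13-fold higher against that floor. Of its words 10.4% occur in another gene. Hdc, which makes histamine and was picked out after its values were seen, kept 12.5%, at mean FPKM of 0.206 in Control, 2.13 in LPS and 0.446 in LPS + TBHQ. Mmp12, the macrophage elastase, picked out after its values were seen, was above its LPS level at 222%. Of 22 such genes tested, 19 were higher than Control and 2 lower, beside 21.2% higher and 22.5% lower among all genes (median log2FC 2.04, or 1.98 with floor genes at their bound, against 2.45 after LPS), and the part that remained had a median of 65.3% over 15 genes. The lower members were Alox5, the 5-lipoxygenase of leukotriene synthesis (log2FC -1.95), and the urokinase gene Plau (-0.22).

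Among NF-κB subunits, inhibitors and feedback regulators, 22 of 28 were higher than Control and 1 lower, beside 21.2% higher and 22.5% lower among all genes, with a median log2FC of 0.49 where LPS gave 0.82. Socs3, a feedback inhibitor of cytokine receptors, was the member that rose most (log2FC 3.30, SE 0.03, FDR 3.6e-30), from a mean FPKM of 2.46 to 24.3, where LPS gave 43.8. Ier3, an immediate early gene, kept 60.6%. Nfkbia, which encodes the inhibitor IκBα, kept 63.2%, the subunit gene Nfkb1 kept 51.6% and the kinase gene Ikbke kept 86.5%. Irak3, a brake on Toll-like receptor signalling, was at 15.1 FPKM, where LPS gave 13.8 (FDR of the difference 0.130). It overlaps Tmbim4 on the opposite strand, and although the libraries were made strand-specific, whether counting used strand is not given in the sources used here, so its level is uncertain. The lower member was Tnip3 (log2FC -0.27). Tnfrsf1b, a receptor of tumour necrosis factor outside this list, went from 12.4 to 132 FPKM and kept 76.6% (76.4 to 76.8%). Of 28 members 21 were higher and 2 lower with total library size.

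Of 18 early response transcription factors, 10 were higher than Control and 4 lower, beside 21.2% higher and 22.5% lower among all genes, so that the share lower was near that of all genes (median log2FC 0.29, after LPS 0.68). Maff, a small Maf protein, and the growth regulator Myc rose by 1.77 and 1.41, and Atf3, a repressor induced by stress, rose by 0.68, keeping 43.7%. Fosl1 rose by 1.80, and 52.6% of its 50-base words also occur in the overlapping gene Ccdc85b, so its level is uncertain. Fos, Egr2 and Egr3 were lower than Control at -0.81, -0.70 and -1.58, and were lower after LPS too (-0.67, -0.54 and -1.41). Among Toll-like receptors and their adaptors 5 of 21 were higher, a share near that of all genes, and 8 lower, with a median of -0.03. The coreceptor Cd14 rose from 809.7 to 1197 FPKM and the adaptor gene Ticam1 by 0.71 in log2FC. The lowest member was Tlr8, a sensor of RNA, with counts of 32, 32 and 37 in Control, 3, 6 and 4 in LPS and 11, 8 and 4 in LPS + TBHQ (log2FC -2.19, SE 0.34, FDR 7.8e-06, and -2.75 after LPS). Tlr9, a DNA sensor, and Ly86, a partner of Cd180, fell by 0.92 and 0.74 on the log2 scale.

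Genes in LPS + TBHQ stood on either side of their LPS level. Of the 2896 genes above Control at an FDR below 0.05, 527 were higher than after LPS and 553 lower, and of the 3087 below Control 516 were lower than after LPS and 514 higher, where 11.7% of all genes tested were higher and 12.2% lower in that contrast. Il36g (ENSMUSG00000044103, chr2:24076488-24083580), which was higher than after LPS, encodes an epithelial and myeloid cytokine of the interleukin-1 family. It had no count in the Control libraries, 2, 1 and 2 in TBHQ, 18, 15 and 13 in LPS and 97, 125 and 84 in LPS + TBHQ. A count of 0 allows up to 3 counts, and against that floor in each library Il36g was at least 30.9-fold higher after LPS + TBHQ and at least 5.41-fold higher after LPS. The LPS + TBHQ libraries did not overlap the LPS libraries, with a log2FC of 2.48 (SE 0.22, FDR 4.0e-10) between them. Slpi (ENSMUSG00000017002, chr2:164195990-164231015), a secreted inhibitor of neutrophil proteases, had 4.64, 5.15 and 3.66 FPKM in Control, 25.6, 24.5 and 25.1 in LPS and 47.7, 49.4 and 50.1 in LPS + TBHQ. Its log2FC was 3.44 (SE 0.14, FDR 4.7e-28) against Control and 0.97 (SE 0.03, FDR 8.9e-15) against LPS, and each LPS + TBHQ library was above each LPS library. After TBHQ alone Slpi was lower than Control, at -0.52 (FDR 0.00314).

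Antioxidant and detoxification genes were higher as a group: 32 of 34 tested (36 listed) rose against Control and 1 fell, beside 21.2% and 22.5% of all genes. Their median log2FC was 1.12 in LPS + TBHQ, 0.56 in LPS and 0.55 in TBHQ at 4 h. Against LPS, 30 were higher and 2 lower, beside 11.7% and 12.2% of all genes (median 0.59). Slc7a11, the cystine importer that feeds glutathione synthesis, had 9.56, 9.24 and 9.7 FPKM in Control, 35.4, 32.2 and 32.1 in TBHQ, 41.3, 42 and 39.4 in LPS and 68.8, 66.8 and 67.3 in LPS + TBHQ. These libraries rank in that order with no overlap between the groups, and the log2FC was 2.82 (SE 0.02, FDR 2.8e-35) against Control and 0.72 (SE 0.03, FDR 3.7e-18) against LPS. Gclm, the modifier subunit of glutamate-cysteine ligase, was at 17.9 FPKM in Control, 63.4 in TBHQ, 34.4 in LPS and 68 in LPS + TBHQ. Its catalytic partner Gclc was at 60.8 FPKM after TBHQ for 4 h but at 30.7 in LPS + TBHQ, where Control had 22.9 (log2FC 0.42). Txnrd1, a thioredoxin reductase, went from 63.1 to 134 FPKM, and Cbr3, a carbonyl reductase that LPS left at 7.33 FPKM beside 7.2 in Control, was at 17.4. The member with the largest log2FC was Gstp3, a glutathione transferase, with counts of 0, 0 and 2 in Control, 40, 31 and 22 in LPS and 22, 32 and 23 in LPS + TBHQ. By summed counts it was 34.9-fold higher than Control (95% counting interval 9.35 to 294). Nqo1, the quinone reductase, stayed at low counts, 1, 2 and 5 in Control and 29, 40 and 45 in LPS + TBHQ (log2FC 3.69, SE 0.37, FDR 4.6e-08). Akr1b8, an aldo-keto reductase picked out after its values were seen, was at 68.1 FPKM in Control, 133 in LPS and 275 in LPS + TBHQ.

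Some members did not pass their LPS level. Hmox1, the heme oxygenase, had 202, 187 and 192 FPKM in Control, 1024, 948 and 967 in LPS and 785, 784 and 826 in LPS + TBHQ, below LPS in each library (log2FC -0.30, FDR 2.0e-08). The lower member was Gpx1, a glutathione peroxidase, at -0.49 against Control and -0.49 after LPS. Ftl1, the ferritin light chain, rose from 1803 to 3116 FPKM, but 58.4% of its 50-base words also occur in other genes, so its level is uncertain. The same holds for Gstp1 (33.7%, log2FC 1.31) and G6pdx (16.9%, log2FC 1.11).

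Interferon-stimulated genes were the largest listed group in the set that crossed to the other side of Control. At an FDR below 0.05 in both contrasts, 113 genes (0.825% of those tested) were above Control after LPS and below Control after LPS + TBHQ. Their median log2FC was 0.39 after LPS and -0.30 after LPS + TBHQ, with -0.48 after TBHQ for 4 h and -0.72 for LPS + TBHQ against LPS. Both contrasts use the same Control libraries, so the count is a description. In 107 of the 113, each LPS library was above each Control library and each LPS + TBHQ library below. As these genes were picked for that order, this too is a description. Among all genes tested, LPS + TBHQ and Control did not overlap for 52.1%. Most of these crossings were small: 27 genes had a log2FC beyond 0.5 in both contrasts and 8 beyond 1. Of the 113, 105 had a mean of at least 50 counts. 33 were among the interferon-stimulated genes listed, which is 29.2% of the 113 and 55.9% of the 59 listed genes tested. The list is not exhaustive, so the 29.2% counts listed symbols only. Cxcl10, described below as interferon-induced, and Gbp9, Ifi44l and Ifi208 are among the 113 but not in the list. The genes just inside and just outside the limit were Snw1 (FDR 0.0497) and Pfkl (FDR 0.0501).

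Ifit3 (ENSMUSG00000074896, chr19:34560931-34566131), an antiviral protein of the IFIT family, had 9.82, 8.62 and 7.12 FPKM in Control, 33, 29.8 and 30.1 in LPS, 4.18, 2.69 and 3.79 in LPS + TBHQ and 3.4, 4.35 and 4.07 in TBHQ. LPS libraries were thus all above Control, and LPS + TBHQ libraries all below it. The log2FC was -1.26 (SE 0.23, FDR 1.1e-09) for LPS + TBHQ and 1.86 for LPS, and -3.12 between them. Its close copy Ifit3b holds 51.2% of its 50-base words, so the level of Ifit3 alone is uncertain. Oasl2, of the oligoadenylate synthase family, had 5.3, 4.36 and 4.59 FPKM in Control, 12.7, 11.7 and 11.3 in LPS and 2.24, 2.26 and 2.22 in LPS + TBHQ (log2FC -1.09, SE 0.09, FDR 1.9e-14 against Control). Cmpk2, a mitochondrial nucleotide kinase, had 22.7, 18.1 and 18 FPKM in Control, 35.4, 32.8 and 32.4 in LPS and 8.69, 8.02 and 9.08 in LPS + TBHQ (log2FC -1.20, SE 0.12, FDR 2.2e-15). Ifit2, a relative of Ifit3, had 16, 13.7 and 14.7 FPKM in Control, 25.1, 25.2 and 22.2 in LPS and 5.65, 5.63 and 6.31 in LPS + TBHQ (log2FC -1.34, SE 0.09, FDR 4.5e-18). Within each of these genes the 3 groups did not overlap. TBHQ alone for 4 h had the same genes below Control, at -1.11 for Ifit3, -1.50 for Oasl2, -0.76 for Cmpk2 and -0.98 for Ifit2.

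Cxcl10, an interferon-induced chemokine for T cells, had 3.99, 3.3 and 3.1 FPKM in Control, 5.78, 5.81 and 4.97 in LPS and 2.04, 2.22 and 2.08 in LPS + TBHQ (log2FC -0.72, SE 0.11, FDR 6.3e-06, and 0.67 after LPS). It was higher than Control after TBHQ for 4 h, at 0.65 (FDR 5.8e-06). Gbp5, an interferon-induced GTPase, had counts of 40, 33 and 38 in Control, 82, 88 and 113 in LPS and 13, 10 and 15 in LPS + TBHQ (log2FC -1.61 and 1.52). Apol9b and Ms4a6c were at -1.20 and -1.18 where LPS gave 1.09 and 0.91, but 52.3% and 51.4% of their words occur in other genes. Gbp9 was at -0.78, and its counts are uncertain because it overlaps Gbp8 on the same strand. Phlda3, a p53 target, was at -0.74 where LPS gave 0.80. Phf11a, picked out after its values were seen, had the lowest value among the 113, -2.25 (FDR 0.00167), at counts of 12, 9 and 12 in Control, 23, 27 and 30 in LPS and 0, 3 and 4 in LPS + TBHQ. As 35.2% of its words occur in other genes, that value is uncertain.

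**Figure D2:**
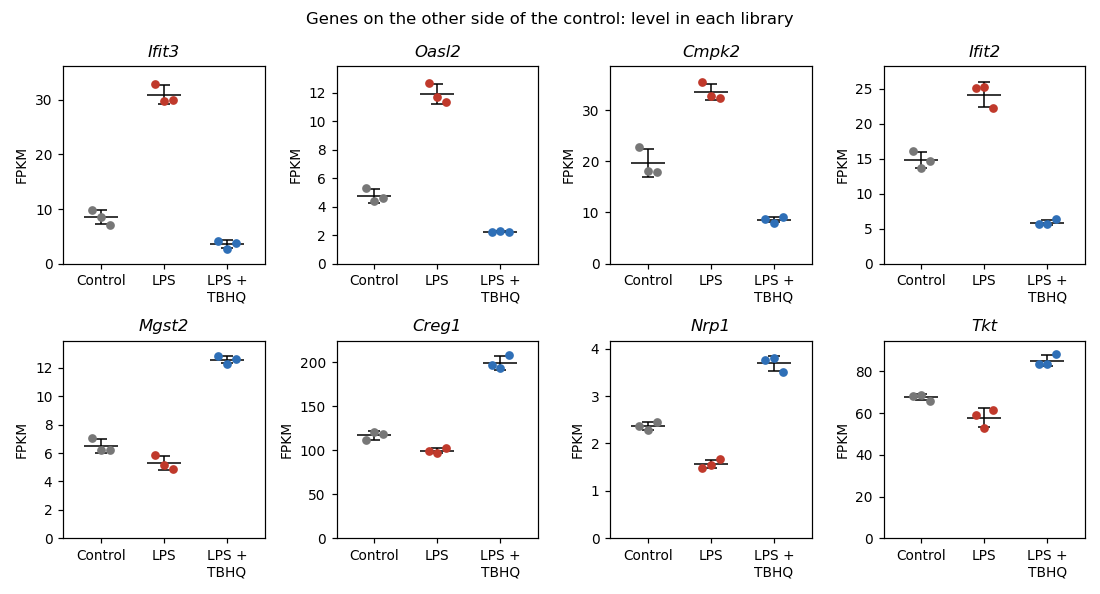
FPKM in each library (points; bars, mean and SD of 3 libraries; linear axes from 0) of 4 genes that LPS raised and that lay below Control in LPS + TBHQ, and of 4 genes with the opposite order. Ifit3 has a mean of 8.52 in Control, 30.9 in LPS and 3.55 in LPS + TBHQ, and Mgst2 6.48, 5.31 and 12.6.

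Over the 59 interferon-stimulated genes tested out of 60 symbols listed, 40 were lower than Control in LPS + TBHQ, 9 higher and 10 not called, beside 22.5% lower and 21.2% higher among all genes. The median log2FC was -0.29. After LPS 51 were higher and 1 lower (median 0.60), beside 24% and 24.1% of all genes, and after TBHQ for 4 h 53 were lower (median -0.53), beside 14.8% of all genes. In the direct contrast with LPS, 58 of the 59 were lower (median -0.87), beside 12.2% of all genes. With total library size 42 were lower than Control and 6 higher. Not all members crossed. Oasl1 kept 27.2% of its LPS increase and stayed above Control at 0.58, the nucleic acid sensor Zbp1 stayed above at 0.54 where LPS gave 2.57, and the tetherin gene Bst2 at 0.20 where LPS gave 0.94. Mx1, an antiviral GTPase, had 12, 21 and 13 counts in Control and 3, 1 and 1 in LPS + TBHQ, so that Control was 10.1-fold higher (95% counting interval 4.05 to 32.7). Among the 16 members with a log2FC above 1 after LPS and a mean of at least 50 counts, 10 had an LPS + TBHQ mean below the Control mean. Of these 10, Gbp3 and Gbp7 were not called against Control, at -0.07 (FDR 0.569) and -0.09 (FDR 0.328).

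Promoter windows of the genes that crossed were read for the core letters of the interferon-stimulated response element, GAAANNGAAA, on either strand. The windows run from 250 bases before to 50 bases after the start of each gene, from RefSeq on GRCm38.p6, a build other than that of the deposited gene positions. Of 32851 such windows 1131 (3.44%) held the letters. Of the tested genes, 9560 were matched by symbol to a window, fewer than the 12617 matched for gene positions. Of these 9560, 375 (3.92%) had a window with the letters. Of the 113 genes 90 were matched, and 31 of these (34.4%) had one, among them 15 of the 24 matched interferon-stimulated genes (62.5%). None of the 25 matched genes of the opposite direction had one, nor did the windows of Oasl2, Cmpk2 and Ifit2. A match is a run of letters and not a measured binding site. Windows of 4 genes that crossed are shown because they hold the letters, with each match in capitals.
Ifit3 (chr19:34583279-34583578, plus strand): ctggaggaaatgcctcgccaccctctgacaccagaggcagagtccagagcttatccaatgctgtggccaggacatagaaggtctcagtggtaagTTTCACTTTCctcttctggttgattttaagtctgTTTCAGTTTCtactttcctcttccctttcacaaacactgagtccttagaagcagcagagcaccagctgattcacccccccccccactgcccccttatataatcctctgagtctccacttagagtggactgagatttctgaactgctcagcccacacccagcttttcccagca
Apol9b (chr15:77728822-77729121, plus strand): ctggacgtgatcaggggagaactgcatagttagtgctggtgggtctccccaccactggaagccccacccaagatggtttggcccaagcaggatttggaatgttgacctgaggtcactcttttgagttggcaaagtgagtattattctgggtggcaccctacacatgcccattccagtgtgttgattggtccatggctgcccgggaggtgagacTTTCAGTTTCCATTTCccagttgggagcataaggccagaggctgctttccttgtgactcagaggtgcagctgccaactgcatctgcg
Cxcl10 (chr5:92348840-92349139, minus strand): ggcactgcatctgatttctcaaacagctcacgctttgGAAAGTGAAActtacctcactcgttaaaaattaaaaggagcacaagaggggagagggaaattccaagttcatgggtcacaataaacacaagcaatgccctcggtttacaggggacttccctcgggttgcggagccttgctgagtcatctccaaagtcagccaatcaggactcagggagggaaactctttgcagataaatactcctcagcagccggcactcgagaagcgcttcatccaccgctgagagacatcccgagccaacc
Gbp5 (chr3:142496684-142496983, plus strand): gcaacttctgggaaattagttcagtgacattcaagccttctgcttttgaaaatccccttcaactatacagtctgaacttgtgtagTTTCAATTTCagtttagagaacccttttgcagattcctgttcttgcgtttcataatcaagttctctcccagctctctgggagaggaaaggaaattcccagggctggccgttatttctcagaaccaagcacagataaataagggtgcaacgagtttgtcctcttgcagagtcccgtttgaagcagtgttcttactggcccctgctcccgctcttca

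In the opposite direction, 32 genes (0.234%) were below Control after LPS and above it after LPS + TBHQ. These crossings were smaller, with medians of -0.20 after LPS and 0.20 after LPS + TBHQ, 0.20 after TBHQ for 4 h and 0.40 against LPS. None exceeded 1 in both contrasts and 3 exceeded 0.5. In 25 of the 32 the 3 groups were ordered with no overlap, and 31 had a mean of at least 50 counts. The genes were picked for that order, so the 25 are a description. LPS + TBHQ and Control did not overlap for 52.1% of all genes tested. Mgst2 (ENSMUSG00000074604, chr3:51567781-51590098), a microsomal glutathione transferase, had 7.07, 6.18 and 6.2 FPKM in Control, 5.83, 5.19 and 4.91 in LPS and 12.9, 12.3 and 12.6 in LPS + TBHQ (log2FC 0.95, SE 0.07, FDR 3.9e-13, after LPS -0.29). Creg1, a lysosomal glycoprotein, had 111, 121 and 118 FPKM in Control, 99.7, 96.9 and 102 in LPS and 197, 194 and 209 in LPS + TBHQ (log2FC 0.76, SE 0.05, FDR 4.2e-19). Nrp1, a receptor for semaphorins and vascular endothelial growth factor, was at 0.63 where LPS gave -0.60. Cacng8, Med18, Nt5dc2 and Tecpr1 were at 0.92, 0.44, 0.32 and 0.26. Tkt, the transketolase of the pentose phosphate pathway, had 68.1, 68.8 and 65.8 FPKM in Control, 59.1, 52.8 and 61.6 in LPS and 83.5, 83.6 and 88.5 in LPS + TBHQ (log2FC 0.32, SE 0.03, FDR 2.3e-08), and Taldo1, the transaldolase of the same pathway, was also among the 32. Kif16b was just inside the limit (FDR 0.0482) and Cdc6 just outside (FDR 0.0511). This count depends on the scaling: total library size gave 53 genes, of which 20 were among the 32. The core letters of the antioxidant response element, TGACNNNGC, occurred in windows of 4 of the 25 matched genes (16%), of 17.1% of matched tested genes, of 17 of the 90 matched genes that crossed downward (18.9%), of 6 of the 24 interferon-stimulated genes among these (25%) and of 8 of 30 antioxidant genes (26.7%).

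Genes of cell division were mostly lower than Control. Of 28 listed genes of DNA replication and cell division, 24 were lower than Control and 1 higher, beside 22.5% lower and 21.2% higher among all genes, with a median log2FC of -0.80, beside -0.94 after LPS. Against LPS, 19 of the 28 were higher, beside 11.7% of all genes. Plk1, a mitotic kinase, was at 42.5 FPKM in Control, 7.87 in LPS and 13.6 in LPS + TBHQ, with 10.4% of its words in other genes. Cenpf and Ccnb2, of the kinetochore and of mitotic entry, had log2FC of -1.71 and -1.59. Aspm, of the spindle pole, had 6.34, 6.14 and 6.22 FPKM in Control, 0.868, 0.985 and 1.09 in LPS and 1.76, 1.79 and 1.54 in LPS + TBHQ (log2FC -1.89, SE 0.07, FDR 2.0e-22). The helicase gene Pif1 and Sapcd2 were at -1.77 and -1.85, where LPS gave -3.00 and -3.15. The linker histone gene H1f0, which was not listed as a division gene, went from 87.9 to 24.7 FPKM. Aspm, Pif1, Sapcd2, Depdc1a, Depdc1b, Arhgef39 and Psrc1 were also outside the list of 28. Depdc1b and Arhgef39 were at -1.92 and -1.82. Depdc1a was at -1.76, with 60.8% of its words in another gene. Psrc1, which binds spindle microtubules, differed from these in lying below LPS. It had 6.29, 6.24 and 5.73 FPKM in Control, 2.87, 2.79 and 3.01 in LPS and 1.33, 1.52 and 1.41 in LPS + TBHQ (log2FC -2.11, SE 0.07, FDR 9.6e-18 against Control and -1.03 against LPS). E2f1 was the member above Control (0.17, FDR 0.0228), but was not called with total library size (0.11) or without Control replicate 1 or LPS + TBHQ replicate 2 or 3 (0.13 to 0.16).

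Among surface receptors, Cx3cr1, the fractalkine receptor, had 6.23, 5.63 and 7.01 FPKM in Control, 1.19, 1.17 and 1.16 in LPS and 0.982, 0.935 and 1.04 in LPS + TBHQ (log2FC -2.68, SE 0.10, FDR 1.2e-19). Its value is uncertain, because the annotation has it overlap Csrnp1 and Gorasp1 on the same strand and Wdr48 on the other. Cysltr1, a leukotriene receptor, fell by 1.76 on the log2 scale, and the integrin gene Itga4 by 1.29. Of 17 genes of costimulation, adhesion and chemokine reception tested, 8 rose and 4 fell, beside 21.2% higher and 22.5% lower among all genes (median 0.31, after LPS 0.46). Cd40, which receives T cell help, was at 2.63 FPKM in Control, 12.9 in LPS and 5.7 in LPS + TBHQ, keeping 30.0%. Cd83 was below Control at -0.66 where LPS gave 0.21. Of 17 phagocytic and scavenger receptors tested, 9 rose and 4 fell (median 0.26, after LPS 0.43). In both lists the share that fell was near that of all genes. Clec4n, the fungal receptor dectin-2, rose by 2.51 and Stab1, a scavenger receptor, by 2.05, where LPS gave 2.31 and 1.51. Stab1 and Nt5dc2 overlap on opposite strands, so both levels are uncertain. Siglec1, the sialoadhesin gene, kept 49.7%. Fcgr1, the high-affinity receptor for IgG, went from 13.8, 14.2 and 14 FPKM in Control to 5.27, 5.84 and 5.08 in LPS + TBHQ (log2FC -1.38, SE 0.06, FDR 2.1e-16), where LPS had 14.9, 13.7 and 13. TBHQ alone had it at -1.28. Trem2, a lipid receptor, was at -0.86, and at -1.66 after LPS. Of 7 complement genes tested 3 rose and 2 fell, a small number of genes to set beside those shares (median 0.18, or 0.14 with floor genes at their bound, and 0.79 after LPS). The receptor gene C5ar1 rose by 1.51 and kept 92.7%, and C3 rose by 0.79 and kept 36.2%.

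**Figure D3:**
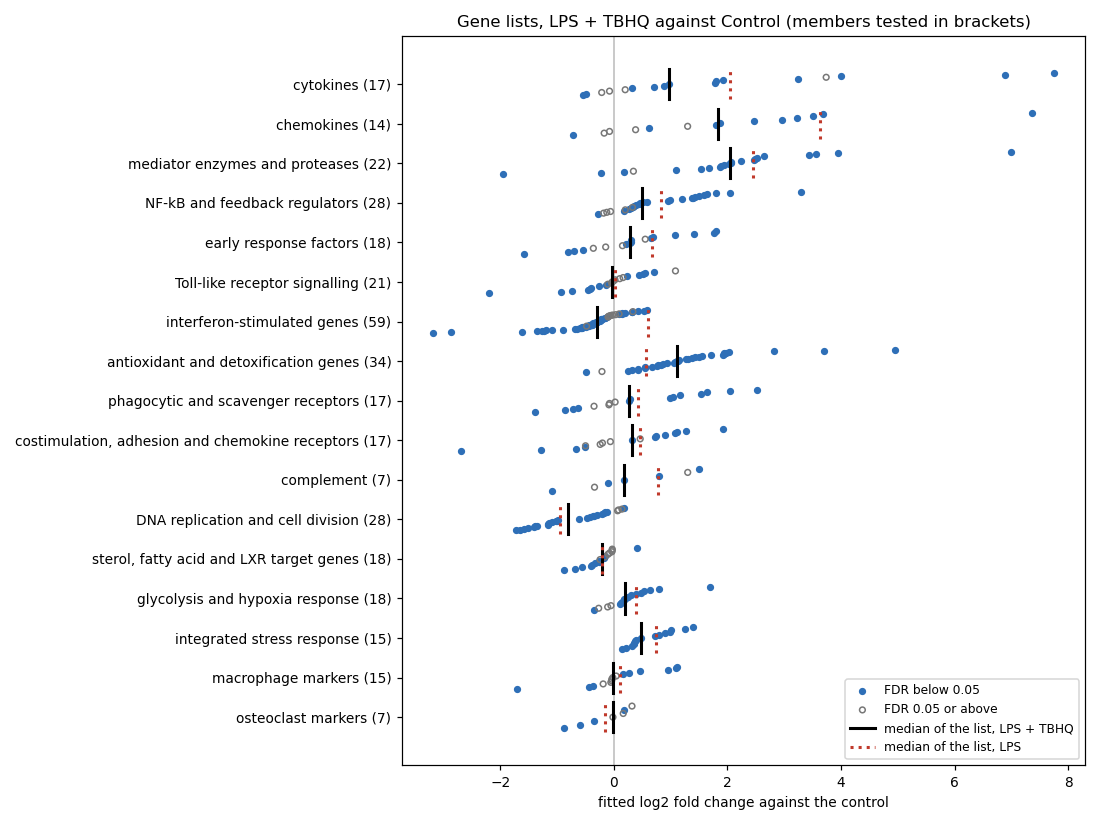
log2 fold change of LPS + TBHQ against Control for each tested gene of 17 lists with at least 5 genes tested (filled circles, FDR below 0.05; open circles, not called; black line, list median; red dotted line, list median of LPS against Control). Values are those fitted, also for genes at the floor of counts. Antioxidant genes have a median of 1.12, interferon-stimulated genes -0.29 and division genes -0.80.

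Genes of stress responses and metabolism had list medians of log2FC from -0.20 to 0.49. All 15 genes of the integrated stress response tested were higher than Control, where 21.2% of all genes were higher, with a median log2FC of 0.49 beside 0.75 after LPS, and 14 of the 15 with total library size. Ddit4, an inhibitor of mTORC1, rose by 1.39 and kept 28%, Chac1, which degrades glutathione, rose by 1.25 and kept 85.8%, and Atf4 itself rose by 0.49. Of 18 gene records of glycolysis and the hypoxia response, 14 were higher and 1 lower, beside 21.2% higher and 22.5% lower among all genes (median 0.20, after LPS 0.39). With total library size 10 were higher and 3 lower. The glucose transporter gene Slc2a1 rose by 0.80 and kept 48.9%, and Vegfa rose by 0.63. Bnip3, a hypoxia-induced mitophagy receptor, was below Control at -0.35 where LPS gave 0.81, with 47.2% of its words in other genes. Gapdh had uneven replicates, with counts of 579, 573 and 578 in Control, 2765, 707 and 737 in LPS and 715, 3116 and 2072 in LPS + TBHQ. Its log2FC of 1.69 (FDR 0.0136) was not called by DESeq2 nor without LPS + TBHQ replicate 2, where it was 1.17, and it shares 25.1% of its words with other genes. Of 18 sterol, fatty acid and LXR target genes 10 fell and 1 rose, beside the same shares of all genes (median -0.20, after LPS -0.21). With total library size 13 fell, where 4034 of the 13691 genes tested were lower. Abcg1, a cholesterol exporter, and Scd1, a desaturase, fell by 0.88 and 0.68 on the log2 scale. The mitochondrial transfer RNA gene mt-Tc was at 146, 156 and 139.9 FPKM in Control, 58.6, 92.8 and 93.2 in LPS and 47.1, 40.1 and 40.6 in LPS + TBHQ (log2FC -1.80, SE 0.08, FDR 2.4e-10).

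Of the other genes highest against Control, Urah and Upp1, enzymes of purine and pyrimidine breakdown, rose by 4.36 and 3.57 and kept 41.7% and 32.7%. Gm19026 rose by 3.45, with 23% of its words in other genes. No gene with a mean of at least 20 counts was past the 4-fold limit against Control in LPS + TBHQ while having an FDR of 0.05 or more after LPS. By DESeq2 that count was also 0. With the unadjusted p of edgeR's test, below 0.05 against Control and 0.05 or more after LPS, the count was 0 as well. The first of these limits is looser than the FDR limit and the second stricter. Below 20 counts 8 genes met the rule with the FDR limits, 2 higher and 6 lower, with means of 2.67 to 19.5 counts. Gm5431 was among them. This gene was picked out after its values were seen and had counts of 42, 19 and 47 in Control and 3, 4 and 2 in LPS + TBHQ (log2FC -3.60), with 37.3% of its words in other genes.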

How the data were processed

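Strand-specific poly(A) libraries, 18 in all and 3 for each of 6 conditions, were made and sequenced for the authors by a company, which also aligned reads, assembled transcripts and computed FPKM. Per the labels, the tools were HISAT2 2.0.5, StringTie 1.3.3b and featureCounts 1.5.0-p3, which counted reads per gene. The deposited counts are whole reads per gene, not normalized. The deposited FPKM values are these counts scaled by library total and by gene length, up to 1 constant for each library. Relative to Control replicate 1, this constant was 0.991 to 1 in Control, 1.06 to 1.07 in LPS and 1.04 to 1.05 in LPS + TBHQ. The parts that remained and the overlap between groups rest on these FPKM values. Whether counting used strand is not given in the sources used here. The labels name both GRCm38 and mm39. Of 12617 tested genes matched by symbol to RefSeq GRCm38.p6, 395 (3.13%) had a start or end within 1000 bases, so gene positions are given as mm39 and promoter windows as GRCm38.p6.

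Counts were fitted with edgeR 4.0.16 (R 4.3.3, limma 3.58.1) on all 18 libraries with TMM factors, filterByExpr, glmQLFit and glmQLFTest, and Benjamini-Hochberg adjustment over the 13691 genes kept of 56748 (27701 with a count). Standard errors come from the replicates' log2 values of scaled counts. Fold bounds use a floor of 3 counts in each library. Where a group had 1 to 3 counts in a library and none had more, the ratio of summed counts is given with its exact 95% interval. Floors and intervals cover counting error only. The remaining steps used matplotlib 3.10.9, scipy 1.17.1, numpy 2.4.6 and pandas 2.3.3 under Python 3.11.15. The test was run on simulated data first. Named genes are the 12 highest and 12 lowest log2FC at an FDR below 0.01 with a mean of at least 50 counts and no overlap, the 8 in each direction that lay farthest on the other side of Control at a mean of at least 50 counts, up to 5 in each direction past the 4-fold limit but not called after LPS, up to 3 highest and 3 lowest called members and the most abundant member of each of 21 gene lists, and genes the study names. Members and lists were chosen with earlier results of these data known. A level was called uncertain where over 10% of a gene's 50-base words occur in another gene (24 of 151 genes), or where an overlapping gene has over 10% of its count (2 genes on the same strand, 9 on the other). Alternatives were DESeq2 1.42.0, RLE factors, total library size, other count filters, other limits, the compared libraries alone, the replicate number as a block, and each library left out. Results for some listed genes are not reported here.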

Additional observations from a re-analysis of the deposited data

Results flagged for a closer look

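Among the genes highest and lowest against Control, 4 lay farther from Control than their LPS level by the contrast of LPS + TBHQ with LPS, a criterion chosen after values were seen. Their log2FC in that contrast was 2.48 for Il36g, 0.97 for Slpi, -0.94 for the mitochondrial transfer RNA gene mt-Tc and -1.03 for Psrc1. The libraries stimulated with poly(I:C), a mimic of double-stranded RNA, entered the filter, scaling and dispersion of the fit but stood on neither side of the comparison. Il36g had a mean FPKM of 1.63 in PIC and 6.0 in PIC + TBHQ, where the Control libraries had no count. Slpi had a mean FPKM of 65.8 in PIC and 126 in PIC + TBHQ, where Control had 3.66 to 5.15.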

How the results depend on the processing

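The count of genes higher than Control past the 4-fold limit was 62 with a mean of at least 50 counts over the 18 libraries required. It was 377 with a limit of 1 on log2FC. The count lower was 27 with no filter on low counts, 2 with a mean of at least 50 counts over the 18 libraries and 214 with a limit of 1. Fewer or more genes could enter under these filters and limits by construction. The count below Control after LPS and above it after LPS + TBHQ was 53 with total library size, for which the cause was not tested, and 17 at an FDR below 0.01. The other settings kept the 6 counts within 1.5 times. DESeq2 found 100 genes on the lower other side, 100 of them among the 113, and 26 on the higher, 24 of them among the 32. Total library size found 117 on the lower, 89 of them among the 113.

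Leaving out each library in turn gave 114 to 128 genes higher and 18 to 25 lower past the limit, 2611 to 2698 higher and 2707 to 2830 lower at an FDR below 0.05, and 97 to 112 lower and 22 to 40 higher on the other side. Of 1935 alternative values of 150 named genes, 1906 kept their direction and side of the limit, 24 lost the call and 2 gained it. The other 3 changed sign and belong to Zbtb46, which was not called: -0.040 with total library size, and -0.19 to 0.18 with 1 library left out, negative without Control replicate 3 or LPS + TBHQ replicate 1.

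The replicate numbers showed no clear pairing of Control with LPS + TBHQ. Deviations of same-numbered libraries of these groups correlated at 0.06, -0.01 and 0.01 over 10449 genes, and those of different numbers at -0.08 to 0.07. For LPS and LPS + TBHQ the same-numbered values were 0.06, 0.01 and 0.15, and those of different numbers ran from -0.10 to 0.05. With the replicate number as a block, the counts were 116 higher and 18 lower past the limit, 2913 and 3109 at an FDR below 0.05, and 116 lower and 35 higher on the other side. Each pair of replicates differed beyond sampling noise. Genes under about 20 counts, which include most of those lower past the limit, have fold changes set by few reads.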
